A study of Mus musculus with 19 samples.

Results

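Spinal cords of miR-146a knockout mice differed widely in Clec7a, a microglial gene, and the cords with the most and the least of it were compared across all genes. The 9 cord libraries labelled miR-146a knockout were chosen by their deposited CPM (counts scaled to a common library total) of Clec7a: the 4 highest, called high cords here, were set against the 4 lowest, called low cords. The middle library entered neither group. These 8 libraries, and the middle one, come from a series of 19, in which 4 further cord libraries are labelled miR-146a wild type and the other libraries are motor neuron cultures, not analysed here. All 9 knockout cords carry the same label: whole spinal cord, snap-frozen, miR-146a knockout, no treatment, from mice under a daily cycle of light and dark. The labels give no age, sex, litter, strain or disease stage, and do not say whether the knockout is confined to a cell type or whether each library is a separate animal. A p-value therefore measures only the spread between these libraries.

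Clec7a encodes Dectin-1, a C-type lectin receptor that recognises beta-glucans of fungi and signals through the kinase Syk. In the healthy central nervous system its transcript is scarce, and microglia that surround plaques, debris or degenerating neurons switch it on together with a set of genes for phagocytosis, lipid handling and lysosomes. miR-146a is a microRNA that is induced by NF-kB and restrains the same pathway, by pairing of its seed with transcripts of the signalling adaptors Irak1 and Traf6. Every knockout cord, high or low, carries the label of its loss. miR-146b, encoded on another chromosome, has the same seed, and the 2 mature sequences are shown because the predicted targets of both depend on it. Bases of the seed (positions 2 to 8 from the 5′ end) are in capitals, the sequences are those of RefSeq (GRCm38.p6), and the pair differ at 2 positions, the first of them position 18.
mmu-miR-146a-5p: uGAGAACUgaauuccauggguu
mmu-miR-146b-5p: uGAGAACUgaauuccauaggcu

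The rule fixed the Clec7a values, so they are a description and not a result. Clec7a (ENSMUSG00000079293, chromosome 6, 129461591 to 129472779, minus strand, GRCm38) stood at 26.5 deposited CPM in knockout replicate 4, 16.3 in replicate 7, 15.5 in replicate 1 and 6.97 in replicate 8. The middle library was replicate 6, at 6.87. The low cords were replicate 3 at 4.58, replicate 5 at 4.11, replicate 9 at 3.16 and replicate 2 at 0.937. The 4 wild-type cords held 0.789 to 1.46, so replicate 2 alone among the knockout cords lay within their range. The border between the high group and the middle was nearly a tie: replicate 8 had 267 counts of Clec7a and replicate 6 had 261, and scaling by TMM exchanged them, at 6.84 and 7.07 normalised CPM. Normalised CPM, the unit of every level below, is CPM after TMM scaling over the 13 cords. Replicate numbers only name the libraries here and are not part of their labels. Levels of the high cords are always given in the order of replicates 4, 7, 1 and 8, and those of the low cords in the order of replicates 3, 5, 9 and 2.

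Total counts were 31996125 to 39577247 in the high cords and 28163289 to 36686406 in the low cords, so that 3 counts amount to between 0.0758 and 0.1065 CPM, a limit of counting error only. Mitochondrial transcripts took 1.66% to 1.91% of counts in the high and 1.61% to 1.99% in the low cords. Each group held 1 library with Y-linked Ddx3y (replicates 1 and 9, at 45.6 and 44.4) and low Xist, so this difference was balanced between the groups. The precursor of the deleted microRNA had 1 count in all knockout cords together. A count in knockout cords alone cannot show whether these libraries can read it, and the genotype was not checked by it.

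A pair of libraries stood apart. Replicate 9, a low cord labelled knockout, had 12.4 normalised CPM of Pttg1, the securin gene next to the microRNA locus, where the other knockout cords had 1.05 to 1.83 and the wild-type cords 15.01 to 17.4, and so went against its label. The same library had 1854 normalised CPM of Sod1, the gene of cytosolic superoxide dismutase, against 189 to 276 in the other cords. Knockout replicate 7, a high cord, contained transcripts of skeletal muscle: Acta1, skeletal muscle actin, stood at 2538 there and at 1.13 to 6.07 in the other cords, and the summed level of 15 muscle genes was 11690 against 62.3 to 108. Values that rest on either library are given with and without it where the change is more than 1.5 times.

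With Clec7a left out, no gene passed edgeR's test between high and low cords. The robust quasi-likelihood test of edgeR, with Benjamini-Hochberg adjustment over all 21396 genes tested, called 0 genes higher and 0 lower (0%) at an adjusted p of 0.05, and the smallest adjusted p was 0.195. At an unadjusted p under 0.05 the same test placed 2011 genes higher (9.4% of those tested) and 827 lower (3.87%). limma with quality weights also called 0 genes (0%), with 3344 at an unadjusted p under 0.05, whereas DESeq2 called 822 higher (4.34% of 18923) and 56 lower (0.296%). In edgeR the 3 highest against the 3 lowest cords gave 109 genes higher (0.509% of 21404) and 0 lower, and log2 Clec7a as a continuous term over the 9 knockout cords gave 548 higher (2.3% of 23848) and 36 lower (0.151%). The groups are not groups of the study. They were made from 1 gene of the same libraries, so a p measures how steadily another gene follows the split. Genes of the microglial, phagocytic and lysosomal lists are given below with no p, since microglia are the cells that make Clec7a. Other lists, such as complement and Toll-like receptors, also hold genes made by microglia, so their values are not independent of the split either. The same applies to genes of leukocytes named outside the lists, such as Gpr65. In whole cord RNA, more cells of a type and more RNA per cell cannot be told apart.

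A count that needs no model is the number of genes whose 4 high cords all lie above, or all below, the 4 low cords. Over all genes tested this held for 1086 higher (5.08%) and 453 lower (2.12%). The lists below are read against these shares. The median log2 fold change of all genes tested was −0.03, and 44.04% of them had a positive fold change. Shares well above the background were found for MHC class I (13 of 16 tested members higher), disease-associated microglia (25 of 31) and the lysosome (19 of 27). The disease-associated microglia and lysosome lists are tied to the split, since microglia are the cells that make Clec7a. Lists for myelin, red cells, granulocytes and lymphocytes had 0 members without overlap.

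**Figure D1:**
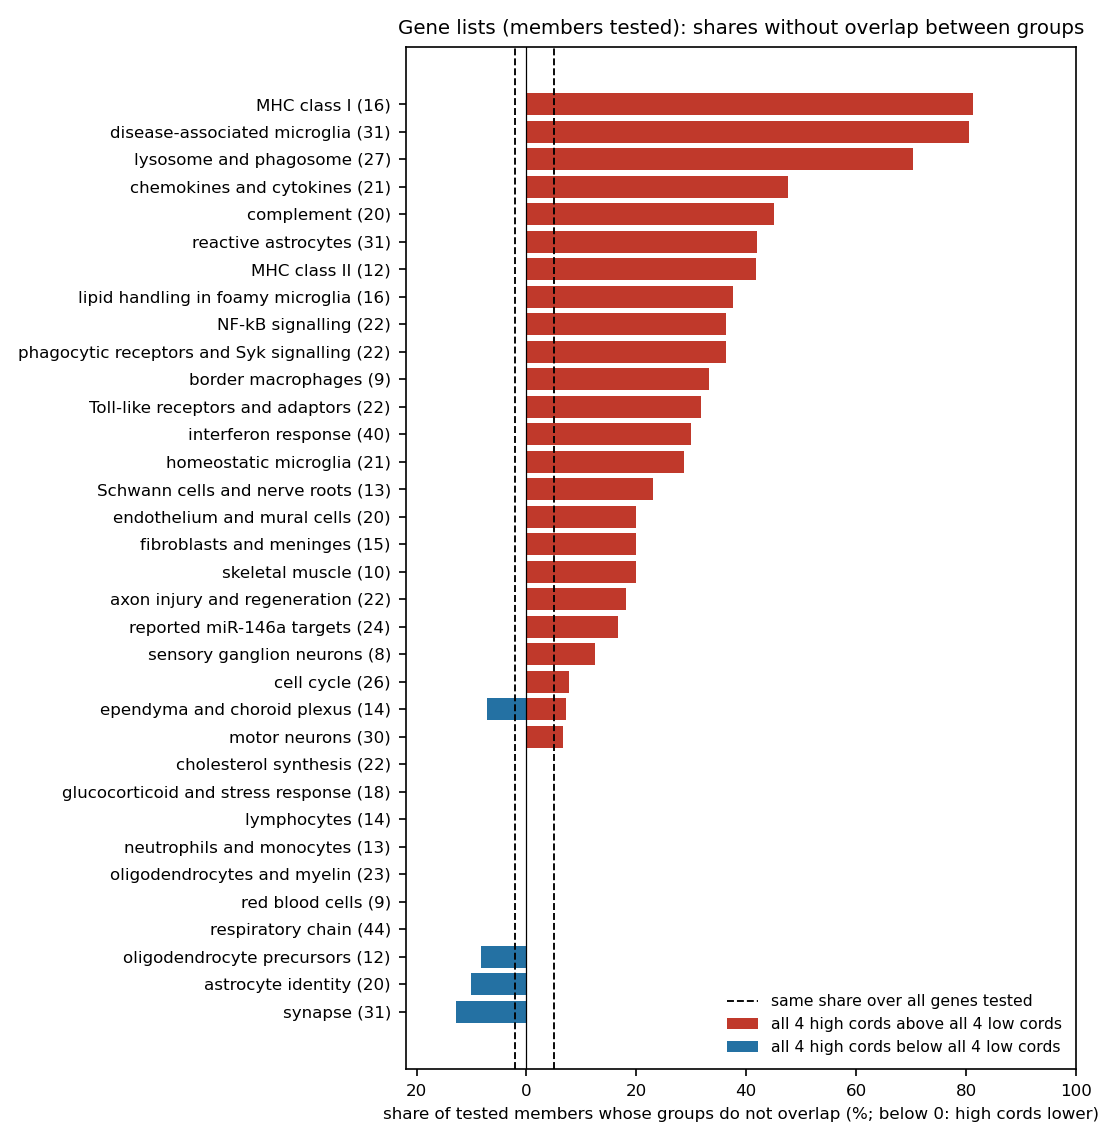
Share of the tested members of each gene list whose 4 high and 4 low knockout cords do not overlap, to the right where the high cords lie above (red) and to the left where they lie below (blue), with the number of members tested in brackets. Dashed lines mark the same shares over all 21396 genes tested, 5.08% and 2.12%, which MHC class I, disease-associated microglia and lysosome genes exceed most. The microglial and lysosomal lists are tied to the split by Clec7a.

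Genes known from microglia around degenerating neurons were higher in the high cords. The 31 listed genes, Clec7a left out, were all tested, all lay above 0 in log2 difference with median 1.67, and 25 did not overlap between the groups. Cd68, a glycoprotein of phagocyte lysosomes, stood at 108, 90.1, 50.2 and 29.3 normalised CPM in the high cords, 37.6 in the middle cord and 19.2, 19.1, 13.3 and 6.05 in the low cords. The high cords lay above every low cord, replicate 2 fell below the 4 wild-type cords (8.11 to 10.7), and replicate 8 stood below the middle cord. Gpnmb, a glycoprotein of phagocytes loaded with lipid, had the levels 368, 224, 37.8 and 84.2 in the high cords, 54.2 in the middle cord and 13.8, 14.3, 5.61 and 2.05 in the low cords, with 2.76 to 4.87 in wild type. It did not keep the order of Clec7a, since replicate 1 lay below replicate 8 and the middle cord. Its log2 difference of 4.31 ± 0.94 (SE) stayed at 4.18 without replicate 7.
Cd63, a tetraspanin of late endosomes, was at 120, 129, 129 and 77.2 against 67.1, 59.4, 61.2 and 56.2. Cd9, another tetraspanin, was at 66.5, 63.1, 62.6 and 38.9 against 26.0, 25.5, 32.7 and 20.4. In both genes 3 high cords lay close together and replicate 8 lay much nearer the low cords.

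The nearest followers of Clec7a were sought over all 9 knockout cords by Pearson's r of log2 levels, which is a description across libraries that share the split and carries no p. The 8 highest were Cd37 (0.99), Havcr2, Tyrobp, Cd68, Rasal3, Tlr7, Trem2 and Hvcn1 (0.979). Cd37 is a tetraspanin of leukocytes, Havcr2 encodes the checkpoint receptor Tim-3, and Tlr7 is an endosomal receptor for RNA. Trem2, a lipid receptor of microglia, signals through its adaptor Tyrobp. Trem2 stood at 81.5, 47.6, 59.5 and 29.5 in the high cords, 38.8 in the middle and 21.5, 24.0, 16.8 and 10.1 in the low cords, against 12.1 to 14.3 in wild type. Tyrobp stood at 61.5, 55.0, 41.1 and 19.2, then 24.6, then 17.3, 13.7, 10.8 and 6.16. Neither gene overlapped between the groups, and in both the middle cord lay above replicate 8. The 4 lowest r were those of Pde9a (−0.968), a phosphodiesterase that breaks down cyclic GMP, Plppr5, Acsl6 and Slc7a10 (−0.956), and their fold changes were small: Pde9a was at 13.3, 12.7, 13.8 and 15.7 in the high and 15.8, 17.6, 18.5 and 20.7 in the low cords.

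Genes listed for surveying microglia were mostly higher in the high cords as well, by less. Of 22 listed genes 21 were tested, 20 had a positive fold change, the median was 0.86, and 6 did not overlap. Averaged over the list, log2 levels overlapped between the groups: high replicate 8, at −0.27 relative to the 9 knockout cords, lay below low replicate 5 at −0.21. Cx3cr1, the receptor for neuronal fractalkine, had 124, 143, 123 and 62.5 normalised CPM in the high cords and 55.4, 51.0, 42.5 and 36.3 in the low cords, with 41.1 to 52.2 in wild type. The low cords thus spanned the wild-type range. Olfml3, a secreted microglial protein, was at 55.4, 99.1, 67.6 and 30.3 against 23.6, 20.9, 20.2 and 15.4. Gpr84, a receptor for medium-chain fatty acids, is in this list but is not particular to surveying microglia. It was at 4.71, 3.98, 3.04 and 1.79 against 1.12, 1.17, 1.49 and 0.656. P2ry12, the purine receptor by which resting microglia extend processes, overlapped: 15.8, 21.2, 20.01 and 12.2 in the high cords, 11.4, 15.1, 12.96 and 11.3 in the low cords and 11.7 to 16.5 in wild type.

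Receptors and enzymes of phagocytosis were higher in the high cords too, with replicate 7 above replicate 4 in the mean log2 level of the receptor list (2.12 against 0.83). In the list of phagocytic receptors and Syk signalling, 22 of 24 genes were tested, 21 had a positive fold change, 8 did not overlap and the median was 1.88, or 1.37 without replicate 7. Msr1, scavenger receptor A, stood at 7.82, 6.13, 2.39 and 1.36 in the high cords and 0.772, 0.510, 0.454 and 0.228 in the low cords. Clec5a, a lectin receptor that signals through Tyrobp, was at 4.11, 4.502, 3.19 and 1.74 against 1.07, 1.56, 0.778 and 0.656. Vav1, an exchange factor downstream of Syk, was at 26.5, 43.6, 22.2 and 10.8 against 9.66, 8.93, 6.42 and 4.36.
All 27 lysosomal genes were tested, 26 had a positive fold change, the median was 0.88 and 19 did not overlap. Ctsb, cathepsin B, was at 1316, 1371, 1162 and 819 normalised CPM in the high cords, 904 in the middle and 749, 719, 570 and 639 in the low cords, which bracketed the 639 to 700.0 of wild type. Ctsl, cathepsin L, was at 150, 174, 130 and 89.2 against 73.6, 79.6, 66.5 and 63.0.
Lipid handling had a positive fold change for all 16 tested of 18, 6 of them without overlap. Apoe, the main lipid carrier of the nervous system, stood at 5910, 4196, 3980 and 2707 in the high cords and 2675, 2333, 1515 and 1701 in the low cords, so that replicates 8 and 3 nearly met at the border. Mylip, an E3 ligase that removes the LDL receptor, was at 22.8, 31.4, 20.4 and 15.6 against 11.9, 14.4, 11.6 and 9.73. Plin2, a coat protein of lipid droplets, was at 35.9, 56.9, 36.8 and 19.9 against 19.3, 18.1, 18.1 and 17.6. The median of this list, 0.82, was 0.41 without replicate 7.

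**Figure D2:**
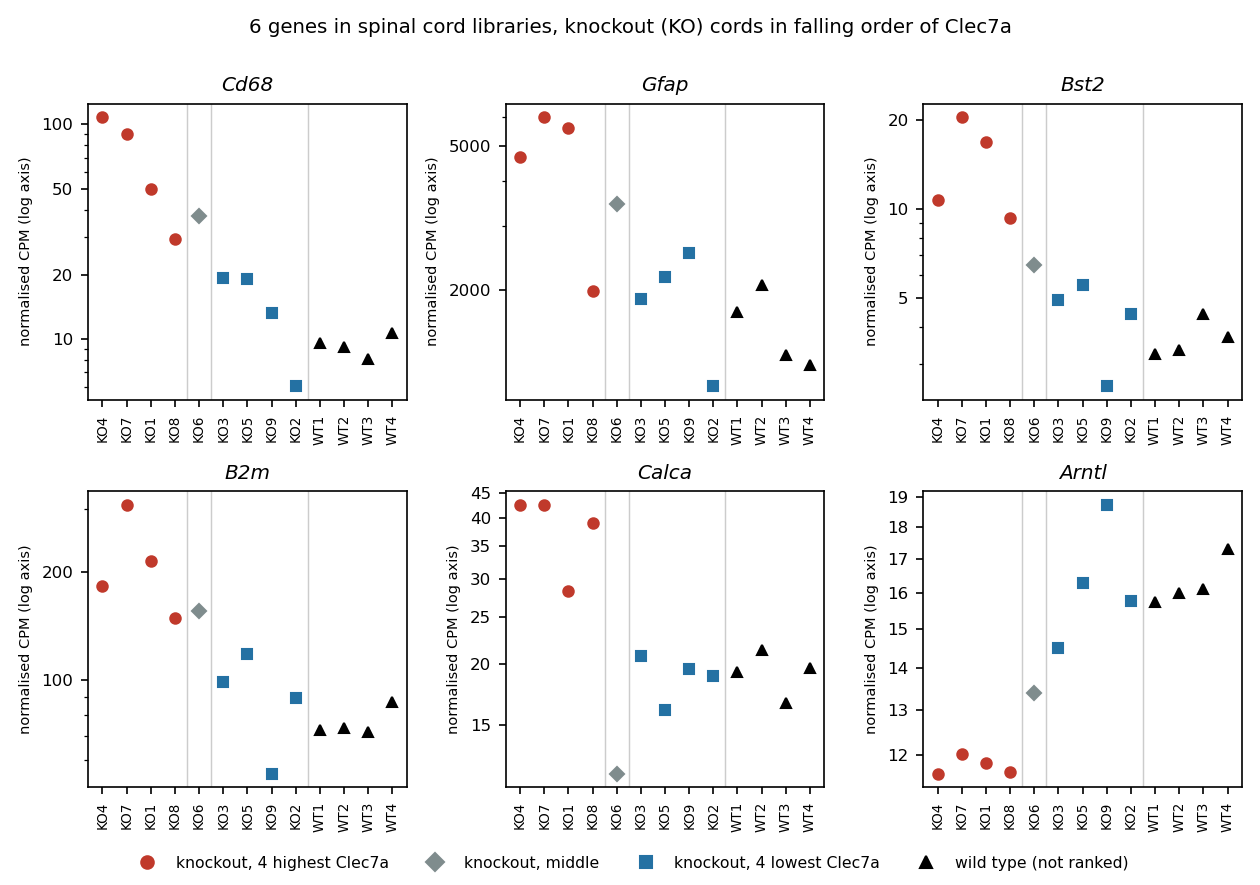
Normalised CPM (log axis) of 6 genes in each cord library, with knockout cords in falling order of Clec7a and wild-type cords at the right. Cd68 runs from 108 in replicate 4 to 6.05 in replicate 2, Gfap overlaps because replicate 8 is low, Bst2 and B2m separate the groups with replicate 7 highest, Calca separates them but has its lowest value in the middle cord, and Arntl is lower in the 4 high cords.

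Complement genes, of which microglia make the C1q chains and astrocytes much of C3, were higher in the high cords for 18 of 20 tested members, 9 without overlap, with a median of 1.81 (1.22 without replicate 7). C1qa stood at 231, 264, 196 and 80.4 normalised CPM in the high cords, 113 in the middle and 71.1, 67.2, 36.2 and 28.4 in the low cords. C1qb stood at 260, 303, 208 and 92.4 against 80.9, 81.7, 43.6 and 36.4. C3ar1, the receptor for the C3a fragment, was at 40.4, 44.5, 18.0 and 13.02 against 6.92, 7.16, 5.32 and 2.97. Each of these genes separated the groups, and wild-type cords (32.5 to 41.3 for C1qa) lay within or just beside the range of the low cords.

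Genes listed for reactive astrocytes stood higher in the high cords. Whole cord RNA does not show which cells made their transcripts. All 31 tested of 32 lay above 0 in log2 difference (median 1.49, and 1.23 without replicate 7), and 13 did not overlap. DESeq2 called 23 of the 31 higher and edgeR 0. Ggta1, a glycosyltransferase, stood at 19.6, 28.1, 19.2 and 10.2 normalised CPM in the high cords, 10.3 in the middle and 7.03, 6.30, 3.76 and 3.99 in the low cords. Its log2 difference was 1.85 ± 0.32 (SE, n = 4 against 4; edgeR adjusted p = 0.195). S1pr3, a receptor for sphingosine 1-phosphate, was at 14.1, 25.4, 26.2 and 15.9 against 9.69, 8.84, 8.95 and 8.90, a log2 difference of 1.15 ± 0.20 with the same adjusted p in edgeR. The low cords were nearly level with each other in this gene and just above the wild-type cords (6.66 to 8.57). Cd44, the hyaluronan receptor, was at 50.6, 81.6, 57.2 and 27.9 against 23.5, 15.4, 21.1 and 15.7.

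Gfap, the intermediate filament that marks reactive astrocytes, did not separate the groups. It stood at 4653, 5994, 5583 and 1989 normalised CPM in the high cords, 3460 in the middle and 1897, 2174, 2534 and 1091 in the low cords, with 1245 to 2072 in wild type. The other high cords and the middle cord lay above every low cord, whereas replicate 8 lay among the low and wild-type cords. Its log2 difference was 1.22 ± 0.38 (edgeR adjusted p = 0.259).
Genes of resting astrocytes showed no common direction: 9 of 20 tested had a positive fold change. The median was −0.01 (−0.04 without replicate 7 and −0.07 without replicate 9). While 0 lay higher without overlap, 2 lay lower without overlap (10%, against 2.12% of all genes tested). These were Slc7a10, a serine and alanine transporter, at 40.1, 54.4, 59.2 and 64.1 against 68.7, 70.0, 81.0 and 95.5, and Gpc5, a glypican, at 33.6, 25.6, 30.9 and 39.7 against 41.7, 40.3, 46.5 and 46.5. Slc6a11, the GABA transporter GAT-3, was at 541, 492, 555 and 704 in the high cords and 740, 765, 567 and 817 in the low cords, where replicate 9, labelled knockout, made the overlap.

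Interferon-induced genes were higher in the high cords but in another order among them. All 40 listed genes were tested and had a positive fold change, 12 did not overlap, and the median was 1.08 (0.83 without replicate 7 and 0.91 without replicate 9). DESeq2 called 18 of the 40 higher and edgeR 0. Averaged over the list, log2 levels relative to the 9 knockout cords were −0.09, 1.16, 0.87 and 0.09 in the high cords, −0.08 in the middle cord and −0.46, 0.000363, −0.90 and −0.59 in the low cords. Replicate 4, highest in Clec7a, was thus level with low replicate 5 and with the middle cord, and replicates 7 and 1 were highest.
Bst2, tetherin, which holds budding virus at the membrane, stood at 10.8, 20.5, 16.9 and 9.36 in the high cords, 6.47 in the middle and 4.93, 5.58, 2.53 and 4.42 in the low cords (log2 difference 1.71 ± 0.30, edgeR adjusted p = 0.195). Gbp5, a guanylate-binding protein, was at 5.93, 10.2, 11.8 and 6.92 against 3.97, 3.93, 2.66 and 3.42. Lgals3bp, a galectin-binding glycoprotein, was at 121, 151, 158 and 71.4 against 53.6, 64.2, 33.0 and 34.0.

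MHC class I, which presents peptides from inside the cell and is itself induced by interferon, had the highest share without overlap of all lists. All 16 genes lay above 0 in log2 difference (median 1.05, 0.79 without replicate 7 and 0.87 without replicate 9), and DESeq2 called 12 of them higher. B2m, the invariant light chain, stood at 183, 309, 215 and 149 normalised CPM in the high cords, 156 in the middle and 98.7, 118, 54.9 and 89.0 in the low cords, with 71.8 to 87.0 in wild type. Its log2 difference was 1.24 ± 0.27 (edgeR adjusted p = 0.195). Psmb8, an immunoproteasome subunit, was at 8.45, 13.3, 8.89 and 6.05 against 4.85, 3.87, 1.62 and 2.91. Tap1, the peptide transporter of the endoplasmic reticulum, was at 14.2, 28.9, 18.0 and 13.9 against 9.80, 10.5, 6.16 and 9.10. In all 3 genes replicate 7 was highest and replicate 9, labelled knockout, was lowest. Genes of this family share sequence, and the assignment of reads between copies of the heavy chains is uncertain.
MHC class II had a positive fold change for 11 of 12 genes, 5 without overlap. H2-Aa, a class II chain, stood at 3.32, 15.03, 4.83 and 5.59 in the high cords and 1.70, 1.59, 0.357 and 2.08 in the low cords, and H2-Ab1, its partner, at 4.64, 28.9, 7.25 and 8.41 against 3.33, 2.25, 1.75 and 3.59. Replicate 7 led both, and without it the log2 difference of H2-Ab1 went from 2.16 to 1.29. Ctss, cathepsin S, which trims the invariant chain, was at 314, 379, 296 and 151 against 119, 119, 70.7 and 60.4.

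Promoters of the interferon genes are shown because members of that list and of MHC class I stood higher together and hold a known motif. The interferon-stimulated response element, searched on both strands in RefSeq promoters (GRCm38.p6; 250 bases before to 50 after the start), was found in 19 of the 30 interferon-list genes with a promoter in the table (63.3%). It was found in 4 of 14 MHC class I genes (28.6%), in 3.67% of all genes tested that have a promoter and in 3.99% of all 27025 genes with a promoter. A gene was counted if any of its promoters held the motif. The list was made of genes known to be induced by interferon, so the first share describes the list. Of the 250 bases before the start printed here, the match is in capitals: 1 in B2m, 139 bases before the start, 2 that overlap in Bst2, 130 and 124 bases before it, and 1 on the opposite strand in Gbp5, 165 bases before it.
B2m, chr2:122147437-122147686, plus strand: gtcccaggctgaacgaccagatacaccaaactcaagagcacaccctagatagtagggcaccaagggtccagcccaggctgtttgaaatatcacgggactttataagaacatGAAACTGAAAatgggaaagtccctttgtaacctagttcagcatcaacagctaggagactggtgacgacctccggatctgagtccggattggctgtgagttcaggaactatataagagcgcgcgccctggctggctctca
Bst2, chr8:71537473-71537722, minus strand: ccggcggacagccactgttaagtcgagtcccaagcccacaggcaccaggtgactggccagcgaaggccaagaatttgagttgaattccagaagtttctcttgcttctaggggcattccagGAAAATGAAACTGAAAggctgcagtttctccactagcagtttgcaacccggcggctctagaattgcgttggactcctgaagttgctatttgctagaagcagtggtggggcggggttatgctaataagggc
Gbp5, chr3:142496684-142496933, plus strand: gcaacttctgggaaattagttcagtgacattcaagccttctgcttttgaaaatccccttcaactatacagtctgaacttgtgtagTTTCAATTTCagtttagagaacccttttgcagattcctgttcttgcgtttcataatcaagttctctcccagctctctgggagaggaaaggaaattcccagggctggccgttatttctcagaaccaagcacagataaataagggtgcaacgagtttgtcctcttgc
Of 3 other motifs searched the same way, the NF-kB site was in 1.63% of all genes with a promoter and in 3 of 16 chemokine and cytokine genes (18.8%). It also matched in B2m and Gbp5, 126 and 77 bases before the start. The AP-1 site TGANTCA was in 8.97% of all genes with a promoter and in 6.6% of those tested. It was in 8 of 23 disease-associated microglia genes (34.8%) and was not particular to them. It was also in 42.9% of MHC class II, 37.5% of chemokine and cytokine and 33.3% of interferon genes with a promoter. In MHC class I and homeostatic microglia it was in 0%. The PU.1 site GAGGAAGT was in 3.69% of all genes with a promoter and in 2 of the 23 disease-associated microglia genes (8.7%). It was not particular to them either. Of genes with a promoter it was in 2 of 7 border macrophage genes (28.6%), 3 of 11 neutrophil and monocyte genes (27.3%) and 3 of 17 Toll-like receptor and adaptor genes (17.6%). In homeostatic microglia it was in 0%. Counted by promoter and not by gene, matches of different motifs overlapped in 16 of the 4926 promoters that held any of the 4. A match is a run of letters and was not tested as a binding site.

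Secreted inflammatory signals were present at low levels and separated the groups for 10 of 21 tested members, with a positive fold change for 20 and a median of 1.85 (1.29 without replicate 7). Cxcl16, a membrane chemokine, stood at 16.7, 28.5, 15.3 and 6.92 normalised CPM in the high cords, 8.05 in the middle and 4.58, 3.96, 2.92 and 2.80 in the low cords (log2 difference 2.22 ± 0.39). Tnf, tumour necrosis factor, was at 1.95, 2.32, 0.805 and 0.564 against 0.320, 0.180, 0.195 and 0.0570, the last of which is below 3 counts. Spp1, osteopontin, was at 283, 280, 135 and 111 against 71.9, 77.1, 58.3 and 62.7. Spp1, which motor neurons also make, lay within or below the wild-type range (69.3 to 85.8) in the low cords.

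The pathway that miR-146a restrains was described within cords that all lack the microRNA by label. Of 22 NF-kB genes tested, 20 had a positive fold change, 8 did not overlap and the median was 0.88 (0.53 without replicate 7). The mean log2 level of the list overlapped, with high replicate 8 at −0.13 below low replicate 3 at −0.01. Nlrp3, the inflammasome sensor, stood at 5.16, 4.32, 3.81 and 1.62 normalised CPM in the high and 1.28, 1.38, 1.13 and 0.713 in the low cords. Tnfaip3, the ubiquitin-editing inhibitor A20, was at 15.2, 15.8, 10.7 and 8.36 against 8.28, 7.13, 4.47 and 6.16, so that replicates 8 and 3 nearly met. Casp4, the sensor of cytosolic lipopolysaccharide, was at 1.42, 4.56, 3.28 and 1.62 against 1.23, 1.08, 0.421 and 0.456.
Toll-like receptors and their adaptors had a positive fold change for 20 of 22, 7 without overlap, with a median of 0.72 (0.45 without replicate 7). Tlr2, the receptor for bacterial lipoproteins, was at 21.8, 27.7, 18.5 and 9.48 against 6.66, 8.27, 5.41 and 2.91. Tlr13, for bacterial ribosomal RNA, was at 12.8, 13.03, 7.25 and 5.20 against 3.67, 3.48, 1.65 and 1.17, and Tlr9, for DNA, at 13.6, 19.4, 11.8 and 7.54 against 7.001, 7.25, 4.41 and 4.71. For Tlr9 the gap between replicate 8 and the highest low cord was small.

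Genes often named as targets of miR-146a did not all share a direction. Of 24 tested, 15 had a positive and 9 a negative fold change, and the median was 0.13 (0.07 without replicate 7). Without overlap, 4 lay higher (16.7%, against 5.08% of all genes tested) and 0 lower. At an unadjusted p under 0.05 in edgeR, 7 were higher and 0 lower. Irak1, the kinase downstream of Toll-like receptors, was at 51.5, 60.1, 54.2 and 49.3 normalised CPM in the high cords and 45.9, 46.8, 45.0 and 41.4 in the low cords. Its log2 difference was 0.24 ± 0.08 (edgeR adjusted p = 0.278), the groups did not overlap, and the low cords lay around the wild-type cords. Irf5, a transcription factor of myeloid cells, was at 17.0, 23.3, 14.96 and 9.59 against 7.51, 7.16, 5.802 and 4.73. Fas, the death receptor, overlapped by replicate 8: 4.32, 5.71, 5.79 and 3.05 against 3.22, 2.16, 1.69 and 2.14.

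Neuronal lists differed in direction. Motor neuron genes had a median of 0.05 (−0.02 without replicate 7) and 18 of 30 with a positive fold change. Calca and Spp1 lay higher without overlap, 2 of 30 (6.67%), which is near the 5.08% of all genes tested. Chat, which makes acetylcholine, stood at 34.0, 32.3, 29.1 and 17.3 normalised CPM in the high cords, 28.4 in the middle and 22.6, 26.4, 24.6 and 23.4 in the low cords. Replicate 8 had the lowest value of all cords, and the other high cords lay above every low cord and within the wild-type range of 28.4 to 36.2. Synaptic genes had a negative fold change for 30 of 31: the median was −0.22 (−0.14 without replicate 7) and 4 lay lower without overlap (12.9%, against 2.12% of all genes tested). Shank2, a postsynaptic scaffold, was at 65.3, 63.7, 73.6 and 77.7 against 81.1, 84.1, 87.4 and 85.5 (log2 difference −0.29 ± 0.08, edgeR adjusted p = 0.217). Gphn, the scaffold of inhibitory synapses, and Grin1, an NMDA receptor subunit, overlapped, with log2 differences of −0.24 ± 0.07 and −0.30 ± 0.10.
Genes known to rise in injured neurons had a positive fold change for all 22 tested of 24, with a median of 0.62 and 4 without overlap. Atf3, the transcription factor of axon injury, was at 11.0, 48.0, 31.2 and 6.74 in the high cords, 2.90 in the middle and 6.63, 2.13, 4.60 and 0.684 in the low cords, with 0.407 to 1.303 in wild type. Replicates 8 and 3 nearly met. Fgf2, a growth factor, Hspb1, a small heat shock protein, and Tubb2b, a tubulin, overlapped through replicate 8, at 20.2, 26.5 and 124 there, and had log2 differences of 0.81 ± 0.23, 1.78 ± 0.49 and 0.50 ± 0.15.

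Without regard to lists, the 12 genes with positive log2 differences and the smallest p, among those with no overlap and at least 1 normalised CPM, did not pass the test, all at an edgeR adjusted p of 0.195. They were Calca, Hpse, Pxdc1, Gpr65, Pdpn, Ccn1, Casp12, Gm4070, Nid2, Trib1, Dap and Soat2. Calca, which encodes the neuropeptide CGRP, had the smallest p of all genes and stood at 42.5, 42.6, 28.3 and 39.1 normalised CPM in the high cords and 20.8, 16.1, 19.6 and 18.9 in the low cords, with 16.7 to 21.4 in wild type (log2 difference 1.00 ± 0.15). The middle cord, at 11.9, lay below every other cord, so Calca separated the groups without following Clec7a through the middle. With the middle cord in place of replicate 8 its log2 difference was 0.72.
Pdpn, podoplanin, a mucin of glia and meningeal cells, was at 16.9, 24.2, 22.7 and 11.1 in the high cords, 11.0 in the middle and 8.39, 6.92, 5.38 and 6.33 in the low cords. Ccn1, a matrix protein induced by mechanical and growth signals, was at 34.3, 34.3, 25.8 and 11.5, then 14.0, then 5.72, 5.79, 6.61 and 3.62. Gpr65, a proton-sensing receptor of leukocytes, was at 2.34, 2.95, 1.64 and 1.36, then 0.677, then 0.346, 0.510, 0.227 and 0.114. The low cords lay near the wild-type cords in Pdpn (5.95 to 7.91) and Gpr65 (0.125 to 0.288), and mostly above them in Ccn1 (1.96 to 4.57).
Hpse encodes heparanase, Nid2 a basement membrane protein, Casp12 an inflammatory caspase, Soat2 an enzyme of cholesterol ester synthesis and Trib1 a pseudokinase. Their log2 differences were 2.19 ± 0.36, 1.38 ± 0.24, 1.46 ± 0.25, 2.56 ± 0.46 and 0.99 ± 0.17. Those of Pxdc1, Dap and Gm4070 were 0.92 ± 0.15, 0.93 ± 0.16 and 1.32 ± 0.23. In Nid2 the high cords other than replicate 7 (25.9) lay within 12.4 to 13.2, and the low cords within 5.79 to 6.42.

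The 12 genes named by the same rule in the other direction had log2 differences between −0.91 ± 0.20 (Ido2) and −0.32 ± 0.08 (Erich3), and again an edgeR adjusted p of 0.195 each. The others were Ankef1, Npas2, Trim9, Cep126, Adamts3, Flrt1, Arntl, Has3, Srrm3 and Flt3. Ido2 encodes an enzyme of tryptophan breakdown, Trim9 a ubiquitin ligase of neurons, Adamts3 a procollagen protease, Flrt1 a neuronal adhesion molecule, Has3 a hyaluronan synthase, Srrm3 a splicing regulator of neurons, and Flt3 a receptor kinase. Arntl (Bmal1) and Npas2 encode partner proteins of the circadian activator. Arntl stood at 11.6, 12.0, 11.8 and 11.6 normalised CPM in the high cords, 13.4 in the middle and 14.5, 16.3, 18.7 and 15.8 in the low cords, with 15.8 to 17.3 in wild type. Npas2 stood at 16.8, 14.9, 15.2 and 16.4, then 20.1, then 20.1, 25.7, 21.9 and 21.2. The 4 high cords were almost level in Arntl and below the wild-type cords in both genes (21.5 to 23.01 for Npas2). Trim9 was at 138, 135, 133 and 147 against 169, 196, 220 and 183.

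Cells of the border, vessels and blood followed Clec7a unevenly. Border macrophage genes lay above 0 for all 9 tested of 12, and their median log2 difference of 1.43 was 0.68 without replicate 7. Stab1, a scavenger receptor of these macrophages and of other cells, stood at 95.1, 156, 43.4 and 42.3 normalised CPM in the high and 32.5, 27.3, 20.3 and 25.1 in the low cords. Ms4a7 was at 3.002, 12.6, 2.26 and 2.03 against 1.57, 0.390, 0.195 and 0.114, and Mrc1, the mannose receptor, at 5.27, 15.03, 4.74 and 4.36 against 4.37, 2.73, 2.43 and 2.60. Replicate 7, the library with muscle transcripts, led in all 3, and the part of surrounding tissue in these levels was not tested. Vessel genes had a median of 0.26 (0.15 without replicate 7) and 4 of 20 without overlap. Among them were Kcnj8 and Abcc9, which form the potassium channel of pericytes: Kcnj8 stood at 10.6, 8.95, 10.7 and 7.97 against 5.70, 4.11, 5.22 and 6.10, and Abcc9 at 32.4, 46.8, 27.5 and 27.2 against 21.5, 22.5, 19.9 and 20.9. Pecam1, an endothelial adhesion molecule that leukocytes also make, overlapped.

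Lists of dividing cells, fibroblasts, granulocytes, red cells and muscle leaned on replicate 7. Without replicate 7 the median of the cell cycle list went from 0.88 to 0.27, that of fibroblasts from 1.65 to 0.50, that of granulocytes and monocytes from 0.55 to −0.53, that of red cells from 0.54 to −0.01 and that of muscle from 7.17 to −0.03. Mki67, the proliferation antigen, stood at 4.16, 33.6, 3.53 and 1.74 normalised CPM in the high and 2.64, 0.989, 2.82 and 0.599 in the low cords. Mcm3, a subunit of the replicative helicase, did not overlap, at 8.56, 16.6, 9.45 and 5.56 against 5.06, 4.14, 4.18 and 3.45. S100a9, a calcium-binding protein of neutrophils, was highest in low replicate 3 (21.6) and high replicate 7 (18.5) and lay between 0.0570 and 2.95 in the other knockout cords. The granulocyte and monocyte median was also 0.11 without replicate 9 and that of red cells 0.34. Lymphocyte genes had a median of 0.98 (0.68 without replicate 7) and 0 of 14 without overlap: Trac, the T cell receptor alpha chain, stood at 1.58, 3.63, 3.41 and 2.13 against 1.25, 1.38, 1.10 and 1.91.
The summed level of Schwann cell genes ran from 2602 to 4496 in the high and from 2293 to 3649 in the low cords. These ranges overlapped. Averaged over the list, log2 levels relative to the 9 knockout cords were −0.63, 1.84, −0.51 and 1.29 in the high cords. In the low cords they were −0.72, −0.21, −0.64 and 0.23. Replicates 7 and 8 thus lay above every low cord, and replicates 4 and 1 did not. The median log2 difference of the list was 0.88, or 0.54 without replicate 7. Egr2, which drives Schwann cell myelination and is also an immediate early gene, separated the groups at 3.82, 8.93, 1.98 and 5.61 against 0.852, 0.719, 1.65 and 0.970. Drp2 and Pmp22, both of peripheral myelin, did so too, with log2 differences of 0.68 ± 0.19 and 0.88 ± 0.26. These were 0.45 and 0.54 without replicate 7, the cord with the highest Schwann cell level, and 0.68 and 0.92 without replicate 8. Each of these genes was highest in replicate 7 and next highest in replicate 8.

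**Figure D3:**
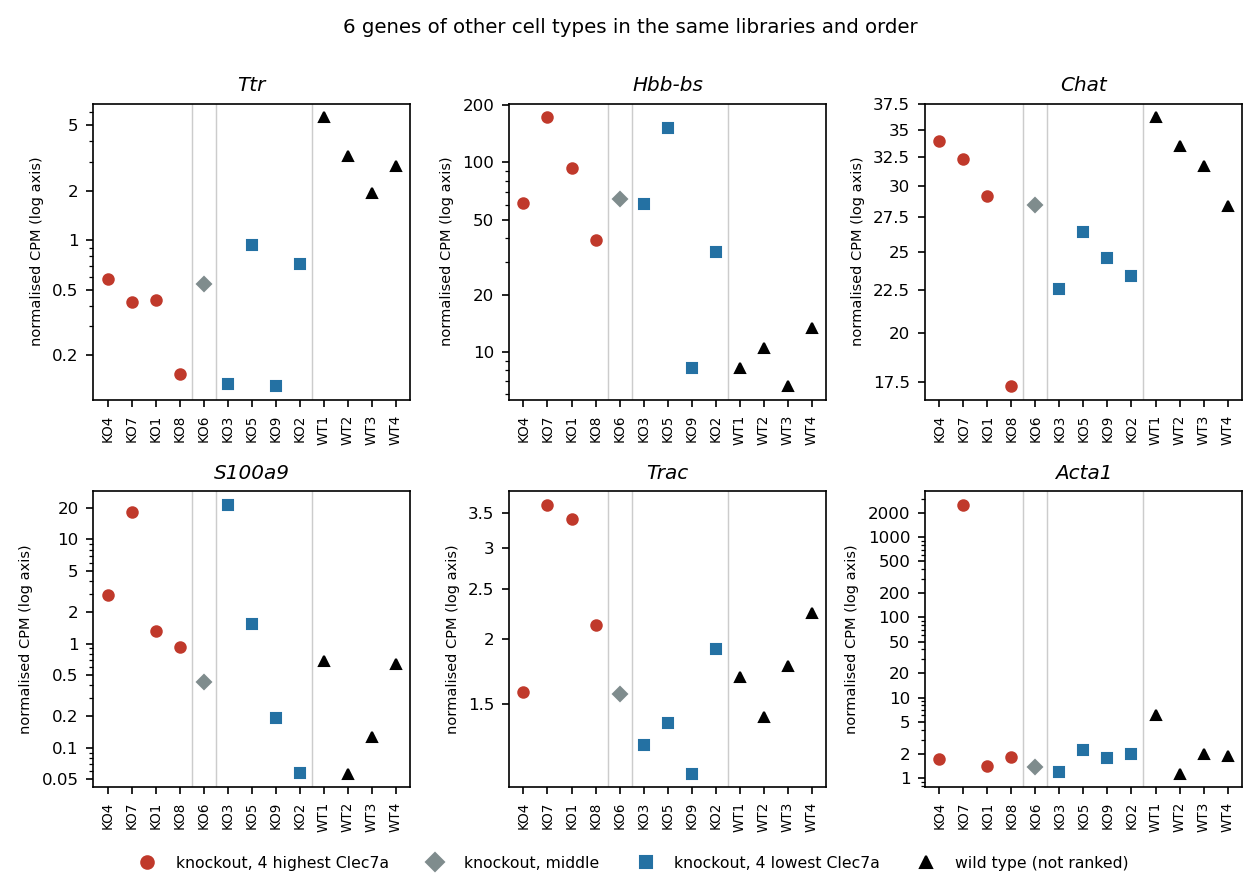
Normalised CPM (log axis) of 6 genes of other cell types in each cord library, knockout cords in falling order of Clec7a. None of the 6 separates the 4 high from the 4 low cords. Ttr is lower in all 9 knockout cords than in the 4 wild-type cords, S100a9 is highest in low replicate 3 and high replicate 7, and Acta1 in replicate 7.

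Myelin genes showed no common direction, and genes of the respiratory chain and of sterol synthesis were mostly lower in the high cords by small amounts and with overlap. Of 23 myelin genes tested 0 separated the groups, 13 had a positive fold change and the median was 0.02 (−0.04 without replicate 7 and 0.08 without replicate 9). Mbp, myelin basic protein, ran from 6040 to 8020 normalised CPM in the high cords and from 6644 to 8212 in the low cords. Serpina3n and Trf, the members with the smallest p, overlapped: Serpina3n, a protease inhibitor that reactive astrocytes also make, was at 328, 691, 520 and 118 against 131, 108, 88.8 and 41.8, with 45.6 to 56.5 in wild type. Respiratory chain genes had a negative fold change for 41 of 44, a median of −0.10 (−0.17 without replicate 9 and −0.04 without replicate 2) and 0 without overlap. Cholesterol synthesis genes had a negative fold change for 18 of 22, a median of −0.15 (−0.05 without replicate 2) and 0 without overlap. Of all genes tested, 44.04% had a positive fold change. Lss, lanosterol synthase, was at 39.5, 36.9, 42.2 and 51.0 against 52.4, 42.5, 56.8 and 56.2.

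Some genes set all knockout cords apart from wild type whatever their Clec7a, which is described by levels only. Ttr, transthyretin of the choroid plexus, stood at 0.130 to 0.929 normalised CPM in the knockout and 1.93 to 5.60 in the wild-type cords. The high cords (0.154 to 0.579) lay within the range of the low cords (0.130 to 0.929). Slc4a1, the anion exchanger of red cells, was at 0.778 to 12.7 against 0.113 to 0.344, and its highest and lowest knockout values were those of replicates 7 and 9. Hbb-bs, an adult beta globin, was at 33.7 to 173 in the knockout cords other than replicate 9, which had 8.23, and at 6.62 to 13.4 in wild type. Replicate 9, labelled knockout, thus lay with the wild-type cords in Hbb-bs, as in Pttg1, and with the knockout cords in Ttr. Reads of Hbb-bs can be shared with other globin copies.

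**Figure D4:**
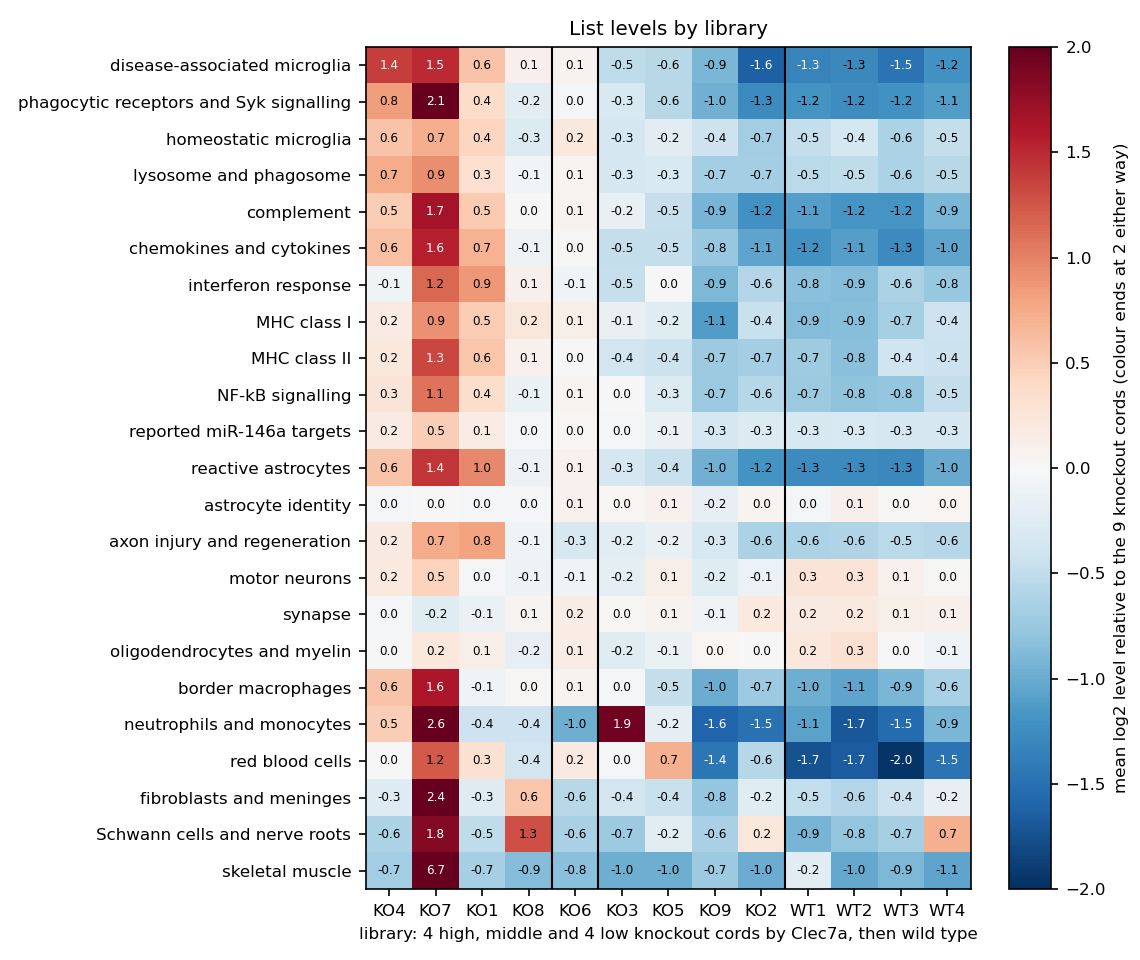
Mean log2 level of each gene list in each cord library, relative to the mean of the 9 knockout cords, with blue for lower and red for higher; colours end at 2 either way and the numbers give the values. Replicate 8, the last of the high cords, lies between −0.27 (homeostatic microglia) and 0.11 (disease-associated microglia) in the microglial, phagocytic, complement and reactive astrocyte lists, and replicate 7 is highest in most lists, muscle included (6.74).

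Replicate 8 was the lowest high cord in the microglial and reactive astrocyte lists. Its mean log2 level relative to the 9 knockout cords was 0.11 for disease-associated microglia and −0.12 for reactive astrocytes, where the other high cords had 0.57 to 1.49 and 0.58 to 1.42. The middle cord had 0.08 and 0.09. Of the 2011 genes placed higher at an unadjusted p under 0.05, replicate 8 lay nearer the mean of the high cords in 39.6%, although that mean includes it, and the middle cord, which entered no fit, in 52.8%. The middle cord lay between both means in 81.7% of these genes, and in 59.5% of the 827 placed lower.
Without replicate 8, edgeR called 424 genes higher (1.93% of 21929) and 9 lower (0.041%). With the middle cord in its place it called 1 gene higher (0.0047% of 21287), Ccn5, a matrix protein, with a log2 difference of 5.05 and an edgeR adjusted p of 0.0284. The lists with most members among the 424 were lysosome and phagosome (20 of 26 tested) and disease-associated microglia (16 of 30). Both are tied to the split, since microglia are the cells that make Clec7a. Reactive astrocytes had 11 of 31 genes among the 424, the interferon list 5 of 40 and MHC class I 1 of 16. Leaving out a library by its place in the split also changes the split, so these calls describe 3 high cords with more Clec7a than replicate 8 against the 4 low cords. Without replicates 7 and 9 together, edgeR called 3 genes higher (0.0141% of 21349), all at 1.06 or more on the log2 scale: Nes, the intermediate filament nestin, Emp1, an epithelial membrane protein, and Nid2.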

How the data were processed

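The cord tables hold 1 library each. Per the labels and the submitters' notes, RNase H depleted ribosomal RNA, random hexamers primed reverse transcription, STAR 2.7.9a1 aligned paired reads to Ensembl release 101 (GRCm38), and featureCounts counted uniquely aligned, unambiguous reads. The strand setting of the counting is not given in the sources used here, so overlapping and antisense genes are uncertain. The counts that the authors deposited entered every test. The deposited CPM, which scale counts by their sum, ranked the libraries by Clec7a. The deposited TPM, scaled by gene length per the file headers, were read for Clec7a only. Symbols came from GENCODE M21 for 55230 of 55487 genes (99.53%), and start and end agreed for 99.42%.

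The members, the 36 gene lists and the tests were chosen with earlier results of these data known. edgeR 4.0.16 (R 4.3.3) fitted the 8 libraries, with low counts removed by filterByExpr and libraries scaled by TMM, without Clec7a, with a threshold of 0.05. Standard errors came from the fold change and its F value. DESeq2 1.42.0, limma 3.58.1, other scalings, filters, splits, sex as a term and leaving out libraries were alternatives. No 2 cords of a genotype matched within sampling noise (smallest chi-square per degree of freedom 7.13). Counts were also simulated with the spread of these libraries (20995 genes). The fit recovered 65 of 100 changes of 1 on the log2 scale and 95 of 100 changes of 2, with 4 false calls. Each gene was drawn independently there, without shifts that many genes of a library share. These shares therefore check the code and do not say how many changes the real comparison would find.

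Genes were named by rule: 12 in each direction with the largest differences among called genes without overlap and with at least 1 normalised CPM, or with the smallest p where none was called; in each list the 3 members with the smallest p and 1 more whose absence from the calls is described; the 8 highest and 4 lowest r with Clec7a; and the sex-linked and label-check genes. Ccn5, Nes, Emp1, Hbb-bs and clock genes were named after their values were seen. Motifs were to be counted in called genes; with none called, gene lists took their place. Cultures were not used. The levels of 1 gene are not reported here.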

Additional observations from a re-analysis of the deposited data

Results flagged for a closer look

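Levels of 120 named genes were examined for a library far from the other 3 of its group (high, low or wild type), by Dixon's criterion at 95%. Of 360 gene and group pairs 37 passed (10.3%), where chance alone flags about 1 in 20. The pairs are given as normalised CPM, with no explanation. Among the high cords, replicate 7 stood above the others in Acta1 (2538), Chodl (24.0), H2-Ab1 (28.9), Mki67 (33.6), Mrc1 (15.03), Ms4a7 (12.6), Ngfr (86.8), Nid2 (25.9), S100a9 (18.5) and Slc4a1 (12.7). Replicate 8 stood below the others in Cd9 (38.9), and replicate 1 was apart in Ddx3y (45.6) and Xist (0.279). Among the low cords, replicate 9, labelled knockout, stood above the others in Pttg1 (12.4), Sod1 (1854) and Ddx3y (44.4), replicate 3 in Mrc1 (4.37), S100a9 (21.6) and S1pr3 (9.69), and replicate 5 in Srrm3 (78.9). Replicate 2 stood below the others in Rasal3 (2.22).

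Among the wild-type cords, replicate 4 stood above the others in B2m (87.0), Casp4 (0.546), Drp2 (87.5), Egr2 (1.78), Lcn2 (9.40), Ms4a7 (0.230), Soat2 (0.288), Stab1 (25.5) and Tnf (0.288). Replicate 1 was apart in Acta1 (6.07), Slc4a1 (0.344), Ddx3y (48.9), Atf3 (0.407) and Xist (1.501), and replicate 3 in Mcm3 (3.93) and Tlr9 (5.13).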

How the results depend on the processing

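All 107 genes given with a fold change kept their direction under each of the 23 other settings that tested them. Calls depended on the tool and on the split. DESeq2 called 822 genes higher and 56 lower where edgeR and limma called 0, and limma placed 1306 genes lower at an unadjusted p under 0.05 where edgeR placed 827. In edgeR, the 3 highest against the 3 lowest cords gave 109 genes higher and 0 lower, and log2 Clec7a as a continuous term over the 9 knockout cords gave 548 higher and 36 lower. Without replicates 7 and 9 together 3 genes were called, and with replicate 6 in place of replicate 8, a setting chosen after seeing the data, 1 gene was called. Leaving out 1 library at a time gave 0 to 424 genes higher, 0 to 9 lower, and at an unadjusted p 1343 to 2501 higher and 518 to 1175 lower. The highest counts came without replicate 8, and every other single omission gave 0 calls. Other scalings, filters, sex as a term, libraries with high Xist alone, either group with the middle cord added, and the fit without robust estimation gave 0 calls as well. The causes were not tested. No paired analysis was possible because the cord labels carry no replicate numbers. A level under 3 counts, such as Tnf in replicate 2, is not distinguished from 0 at this depth.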

Other observations

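Since Arntl and Npas2 were among the 12 genes named as lower, 16 genes of the circadian clock were looked at, chosen after those values were seen and given with no test. Arntl and Npas2 lay lower in the high cords without overlap, Bhlhe40, a repressor of the clock, lay higher without overlap (78.0 to 93.3 against 54.8 to 74.0 normalised CPM), and the other 13 overlapped. Dbp, an output gene that rises and falls steeply over the day, ran from 27.7 to 42.4 in the high cords, 19.8 to 29.9 in the low and 25.3 to 33.5 in wild type. Per2 ran from 25.1 to 49.2, 29.2 to 42.2 and 26.8 to 33.5. Nr1d1, which represses Arntl, ran from 81.7 to 104 in the high cords and from 65.5 to 112 in the low cords. The hour of collection is not in the labels.

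Chodl, a marker of fast motor neurons, stood at 9.24 to 25.1 normalised CPM in the knockout and 19.6 to 38.4 in the wild-type cords. Within the knockout cords its highest values were in low replicate 5 (25.1) and high replicate 7 (24.0), and the groups overlapped. Lcn2, lipocalin 2, made by reactive astrocytes and neutrophils, stood at 33.4, 153, 87.3 and 9.28 in the high cords, 40.4 in the middle and 35.8, 15.5, 2.11 and 4.91 in the low cords, so that replicate 8 lay below low replicates 3 and 5.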
